A study of Mus with 2 samples.

Results

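The MHC class I antigen processing genes are described here as 10 members, chosen by symbol for their place in the pathway. Members H2-K1, H2-D1 and B2m encode the class I molecule itself, and Tap1, Tap2 and Tapbp bring peptides to it. Psmb8, Psmb9 and Psmb10 are the catalytic subunits of the immunoproteasome, and Nlrc5 is a transcriptional activator of class I genes. All 10 were among the 32285 features of the series and all were detected in both sections. Spatial transcriptomes were taken from tumors of balb/c mice, 6 to 8 weeks old, carrying transplanted CT26 cells, a colon carcinoma line of that strain. The rIL7 treatment group received 10 µg of recombinant mouse IL7 intraperitoneally on days 11 and 13 after transplantation, and the control received PBS. Both tumors were collected on day 15, and each group is 1 tumor section of 10 µm on 1 Visium slide area. A Visium spot covers a small region in which several kinds of cell may lie, so no value below belongs to 1 cell type.

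MHC class I molecules show peptides from inside a cell to CD8+ T cells. Proteasomes cut cytosolic proteins, the TAP transporter moves the fragments into the endoplasmic reticulum, and tapasin holds an empty class I molecule at the transporter until a peptide fits. Interferon-γ is a well known inducer of the whole set: it replaces the constitutive catalytic proteasome subunits (Psmb5, Psmb6, Psmb7) by Psmb8, Psmb9 and Psmb10 in newly built particles and raises Nlrc5. In tumors, loss of these genes is a familiar way for malignant cells to become invisible to CD8+ T cells.

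Of the members, 7 lie in the MHC region of chromosome 17, within 1348020 bases, by the RefSeq annotation of GRCm38.p6, which shares its coordinates with mm10, the build of the files. In order they are Tapbp (33919478 to 33929290), H2-K1 (33996012 to 34000619), Psmb9 (34182030 to 34187330), Tap1 (34187556 to 34197225), Psmb8 (34198195 to 34201454), Tap2 (34204479 to 34216321) and H2-D1 (35263094 to 35267497). Psmb9 and Tap1 stand 225 bases apart. B2m is on chromosome 2 (122147687 to 122153082), and Nlrc5 (94434335 to 94527272) and Psmb10 (105935728 to 105938392) are on chromosome 8. All are protein coding. The reference carries the C57BL/6J class I alleles whereas balb/c mice have another haplotype, and class I genes resemble each other closely. The split of reads between H2-K1, H2-D1 and their relatives is therefore uncertain.

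Kept spots numbered 2219 for the control and 1950 for the rIL7 tumor, with 22951678 and 25729233 UMIs (unique molecular identifiers, each counting 1 captured RNA molecule). The median spot held 9623 UMIs in the control against 12921.5 in the rIL7 section. Values are UMIs per 1000000 UMIs of the same spots (CPM). Each group being 1 section, nothing could be replicated or tested. The interval of a gene, sum or share is a 95% interval for counting error alone. The interval given with a median of genes is the median of those genes' bounds and not a 95% interval of the median. Both leave out differences between mice, sections and libraries. Splits of each section into 4 quadrants show the spread within a section, and quadrants are not replicates. Levels are compared between places for the same gene, sum of genes or pair of genes. Where UMIs of different genes stand side by side, a higher count is not read as more RNA of that gene. In such spots, more cells of a type and more RNA per cell cannot be told apart.

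The sections differed in the cells they held. All 12 T cell genes (Cd3e, Trac, Cd8a and others) were detected in both, and their summed level was 59.3 CPM in the control (quadrants 45.1 to 75.7) and 204 CPM in the rIL7 section (140.2 to 260). The 10 macrophage genes, led by C1qa, C1qb and C1qc, summed to 2357 CPM in the control (1720 to 2922) and 2459 CPM in the rIL7 section (1949 to 2923). The CT26 tumor genes Rpl39l and Baiap2l1 summed to 1293 and 1043 CPM. The 4 keratinocyte genes summed to 58.5 and 37.6 CPM and did not differ alike. Krt10, with the highest count, had 895 UMIs in the control against 966 in the rIL7 section. Krt5 and Krt14 had 196 and 250 against 0 and 1, and Krt1 had 2 against 0. The muscle gene Acta1 had 610 against 23. The part of these differences in the results below was not tested. Some values are given within like classes of spots, but the tumor density classes were set within each section and are not matched.

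The class I chains were higher in the rIL7 section by small factors. H2-K1, a classical heavy chain, stood at 1932 CPM in the control against 2391 CPM after rIL7, a ratio of 1.24 (1.22 to 1.25). Its quadrants did not overlap, with 1658 to 2105 CPM in the control and 2253 to 2483 CPM in the rIL7 section. H2-D1, another classical heavy chain, stood at 3784 and 4097 CPM, the smallest ratio of the members at 1.08 (1.07 to 1.09). B2m, the light chain shared by all class I molecules, stood at 2323 and 2652 CPM, a ratio of 1.14 (1.13 to 1.15). The quadrants of H2-D1 and B2m overlapped between sections. The highest control quadrant held 4317 CPM of H2-D1, against 3792 to 4356 CPM over the rIL7 quadrants.

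Peptide loading genes differed more. Tap1, a TAP transporter subunit, stood at 202 CPM in the control against 288 CPM after rIL7, a ratio of 1.43 (1.38 to 1.48). Tap2, its partner subunit, stood at 118 and 168 CPM, a ratio of 1.42 (1.36 to 1.49). Tapbp, which encodes tapasin, stood at 344 and 437 CPM, a ratio of 1.27 (1.24 to 1.31). For each of these genes every rIL7 quadrant was above every control quadrant. The nearest pair of quadrants for Tap1 was 229 CPM in the control against 275 CPM after rIL7.

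Among the immunoproteasome subunits, Psmb9 had the largest ratio of all members. It stood at 118 CPM in the control (quadrants 92.4 to 137) and 187 CPM in the rIL7 section (174 to 197), a ratio of 1.58 (1.51 to 1.66). Psmb8 stood at 388 and 521 CPM, a ratio of 1.34 (1.31 to 1.38), again with quadrants apart. Psmb10 stood at 235 and 285 CPM, 1.22-fold higher (1.17 to 1.26). Its quadrants shared a range, from 208 to 280.1 CPM in the control and 265 to 297 CPM in the rIL7 section. Nlrc5, the activator, stood at 161 CPM in the control (145 to 193) and 211 CPM in the rIL7 section (187 to 237), a ratio of 1.31 (1.26 to 1.37) with overlapping quadrants.

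Thus 10 of 10 members were higher in the rIL7 section, and their median log2 ratio was 0.37 (0.32 to 0.42), beside a median of -0.01 over the 7613 genes of at least 20 CPM. At least 1.5-fold higher was 1 member, Psmb9, beside 1.97% of all genes. At least 1.2-fold, a rule added after the values were seen, 8 of 10 members were higher beside 8.17% of all genes. All 4 rIL7 quadrants were above all 4 control quadrants for 6 of 10 members, beside 10.0% of all genes. Together the members made up 0.960% of the UMIs in the control against 1.12% in the rIL7 section.

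**Figure D1:**
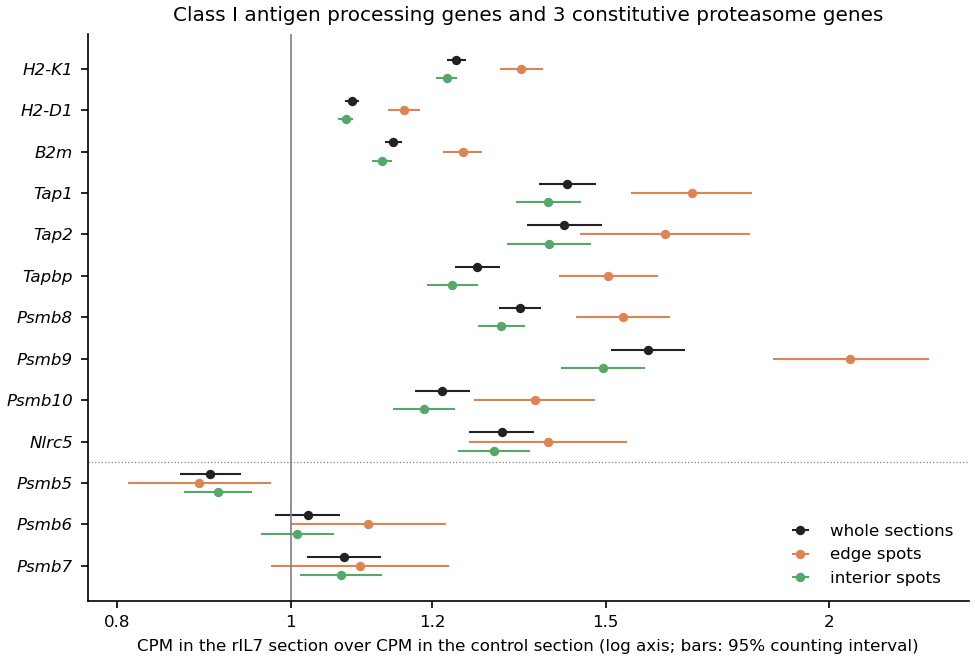
Ratio of CPM in the rIL7 section over CPM in the control section on a log axis, for the 10 members and, under the dotted line, the 3 constitutive catalytic proteasome genes. Points are whole sections, edge spots and interior spots, and bars are 95% counting intervals; every member lies right of 1, edge spots lie furthest right, and Psmb9 reaches 2.06 at the edge.

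The constitutive subunits that the immunoproteasome replaces had ratios from below 1 to near that of H2-D1, the least changed member. Psmb5 was lower in the rIL7 section, at 220.1 CPM in the control against 198 CPM after rIL7, a ratio of 0.902 (0.867 to 0.938). Its rIL7 quadrants all lay below its control quadrants. Psmb6 stood at 178 and 182 CPM (ratio 1.02, 0.980 to 1.07), and Psmb7 at 137 and 147 CPM (1.07, 1.02 to 1.12), with its interval above 1. Set pairwise, Psmb8 UMIs per Psmb5 UMI were 1.76 (1.70 to 1.82) in the control against 2.63 (2.54 to 2.71) in the rIL7 section. Psmb9 per Psmb6 was 0.664 (0.632 to 0.697) and 1.03 (0.988 to 1.07), and Psmb10 per Psmb7 was 1.71 (1.63 to 1.79) and 1.94 (1.86 to 2.02). For the summed subunits the ratio was 1.38 (1.35 to 1.42) in the control against 1.88 (1.85 to 1.92) in the rIL7 section. The highest control quadrant was at 1.55 and the lowest rIL7 quadrant at 1.80, so the sections did not overlap. Since this ratio is taken within the same spots, it does not depend on the total used for scaling.

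**Figure D2:**
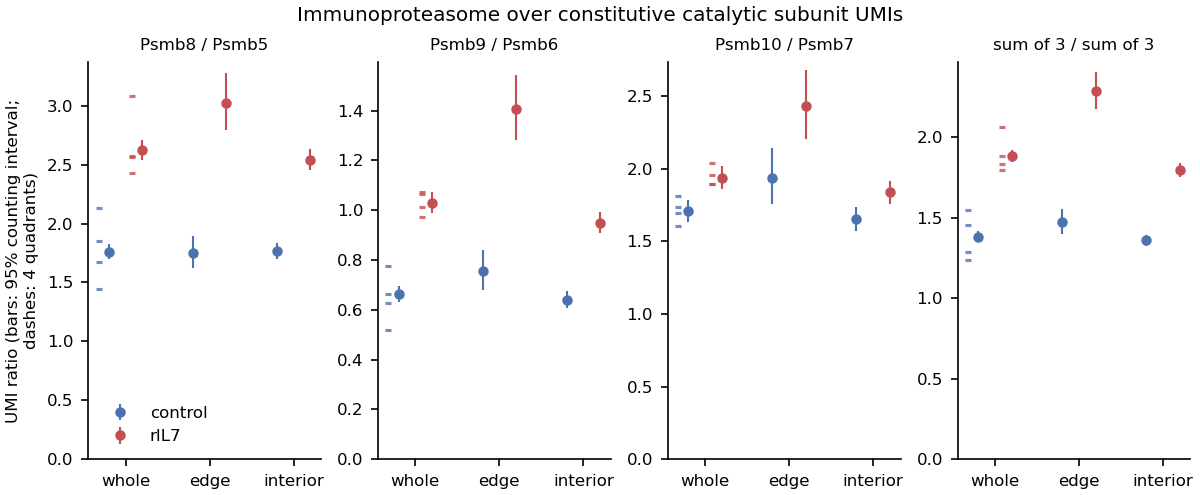
UMIs of an immunoproteasome subunit per UMI of the constitutive subunit it replaces, for 3 pairs and their sums, in whole sections, edge spots and interior spots. Points carry 95% counting intervals and short dashes are the 4 quadrants of a section; the rIL7 section lies above the control in each panel, with summed ratios of 1.88 and 1.38 for whole sections and 2.29 and 1.48 at the edge.

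The rest of the pathway differed less evenly. The 11 other genes of the proteasome core, which form its structural rings, had a median log2 ratio of 0.06 with 10 higher and 1 lower, and 0 of 11 at least 1.5-fold apart. Psme1 and Psme2, the interferon-inducible proteasome activator, had ratios of 1.16 (1.13 to 1.19) and 1.19 (1.14 to 1.24). The 6 other loading and trimming genes had a median of 0.10, and 0 of 6 were at least 1.5-fold apart. Among them the trimming peptidase Erap1 had a ratio of 1.1 (1.03 to 1.18) and the lectin chaperone Canx 0.952 (0.920 to 0.986).

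Of the 10 nonclassical class I genes with at least 20 UMIs, 9 were higher, 3 of them at least 1.5-fold, with a median log2 ratio of 0.35. Among all 14313 genes with at least 20 UMIs, the depth limit used for these lists, 7.72% were at least 1.5-fold higher. The 3 genes were H2-Q6 at 1.57 (1.2 to 2.06) on 88 UMIs in the control against 155 in the rIL7 section, H2-Q10 at 2.40 (1.61 to 3.64) on 35 and 94, and Cd1d1 at 2.13 (1.33 to 3.5) on 26 and 62. H2-Q6 and H2-Q10 have close relatives that can share their reads. Cd1d1 encodes a lipid-presenting molecule that also pairs with B2m.

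Among the transcription factors of class I promoters, Irf1, itself induced by interferon-γ, had a ratio of 1.78 (1.70 to 1.86). The RFX and NFY subunits, which hold Nlrc5 at the promoter, ranged from 0.830 for Rfxap to 1.04 for Nfyb. Of 11 genes of the interferon-γ axis, 5 were at least 1.5-fold higher, beside the same 7.72% of all genes: Ifng itself (2.39, 1.73 to 3.34, on 53 and 142 UMIs), the kinase Jak2 (2.17, 2.03 to 2.32), the chemokine Cxcl9 (3.01, 2.83 to 3.20), the GTPase Gbp2 (2.43, 2.25 to 2.61) and Cd274, which encodes PD-L1 (2.15, 1.87 to 2.47). Ciita, the class II counterpart of Nlrc5, was at 0.915 (0.798 to 1.05).

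Position in the tissue was the next comparison. Spots no more than 2 grid steps from the outline of the main tissue piece were called edge spots, 401 of 2207 such spots in the control and 330 of 1929 in the rIL7 section, and interior spots were the rest. In the rIL7 section all 10 members were higher at the edge, with a median log2 ratio of 0.35 (0.31 to 0.43). Their counting intervals lay above 1 for 9, beside a median of -0.06 over 7655 genes. In the control section 9 of 10 were higher, 8 with intervals above 1, and the median was 0.16 (0.11 to 0.25), beside -0.05 over 7524 genes. The difference between these medians was not tested.

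Psmb9 and Tap1 had the steepest gradients. After rIL7, Psmb9 stood at 279 CPM in edge spots and 170.3 CPM inside, a ratio of 1.64 (1.53 to 1.75). In the control it stood at 136 and 114 CPM, a ratio of 1.19 (1.09 to 1.31). Tap1 stood at 404 and 267 CPM in the rIL7 section (ratio 1.51, 1.43 to 1.60) and at 241 and 192 CPM in the control (1.26, 1.17 to 1.35). B2m was the steepest of the chains, with ratios of 1.29 (1.26 to 1.31) in the rIL7 section and 1.16 (1.14 to 1.18) in the control.

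Nlrc5 departed from the rest. After rIL7 it stood at 214 CPM in edge spots and 211 CPM inside (ratio 1.02, 0.943 to 1.09), and at 154 and 162 CPM in the control (0.948, 0.871 to 1.03). Both intervals included 1. Its edge level exceeded its interior level in 2 of 4 quadrants of each section, whereas Tap1, Psmb9 and the median of the members were higher at the edge in 4 of 4 quadrants of each. The rIL7 quadrants differed in size, with medians of the members from 1.07-fold to 1.55-fold.

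Of the members, 2 in the rIL7 section were at least 1.5-fold higher at the edge, beside 5.89% of all genes, and 7 at least 1.2-fold, beside 13.9%. In the control 0 of 10 reached 1.5-fold, beside 0.611% of genes, and 1 reached 1.2-fold (Tap1), beside 4.20%.

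The decline inward was gradual. Summed over H2-K1, H2-D1 and B2m, the rIL7 section held 10936 CPM in the outermost step, 9704 CPM at steps 3 to 4 and 8410 CPM at 12 or more steps, and the control held 9027, 8368 and 7146 CPM. Psmb9 in the rIL7 section stood at 283 CPM in the outermost step, 220.4 CPM at steps 3 to 4 and 145 CPM at 12 or more steps. The immunoproteasome sum peaked at the second step in both sections, at 1302 CPM in the rIL7 section and 829 CPM in the control, and the innermost spots held 822 and 660.1 CPM. Innermost rIL7 spots thus lay near the level of the outermost control spots, at 804 CPM. The constitutive sum varied little, from 512 to 581 CPM in the rIL7 section and from 497 to 576 CPM in the control.

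**Figure D3:**
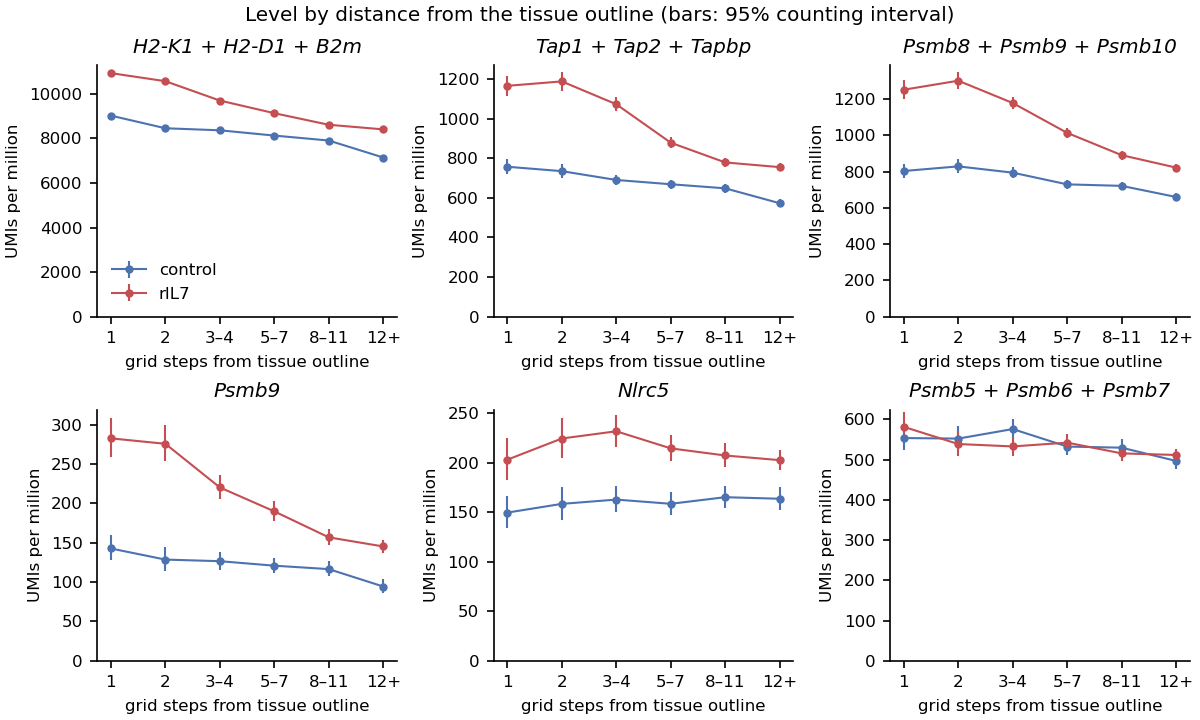
Level in UMIs per 1000000 by distance from the tissue outline in grid steps, for the class I chains, peptide loading genes, immunoproteasome subunits, Psmb9, Nlrc5 and constitutive subunits. Lines join the control and rIL7 sections and bars are 95% counting intervals; the first 4 panels decline toward the centre, most steeply for Psmb9 in the rIL7 section (283 to 145 CPM), while Nlrc5 and the constitutive sum are nearly level.

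Other cell type genes shared this layout in the rIL7 section. Its edge held 3790 CPM of the macrophage genes against 2212 CPM in the interior, 461 against 156 CPM of the T cell genes, 7922 against 2496 CPM of the class II genes, and 3275 against 1878 CPM of the fibroblast genes. CT26 tumor genes ran the other way, at 757 and 1096 CPM. In the control the same lists were flatter, with 2536 and 2311 CPM of macrophage genes and 68.2 and 57.2 CPM of T cell genes. At the rIL7 edge Cxcl9 was 3.48-fold (3.27 to 3.70) above the interior, against 1.38 (1.21 to 1.56) in the control. How much of the members' gradient goes with cell mixture was not tested.

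Compared between sections within the same zone, the members were higher in the rIL7 section at the edge and inside. At the edge the median log2 ratio was 0.53 (0.44 to 0.65). There 5 of 10 members were at least 1.5-fold higher, beside 6.98% of all genes, and 9 at least 1.2-fold, beside 19.3%. Psmb9 was 2.06-fold higher (1.86 to 2.27) and Tap1 1.68-fold (1.55 to 1.81). In the interior the median was 0.34 (0.29 to 0.39), 0 members reached 1.5-fold beside 1.57% of genes, and 7 reached 1.2-fold beside 7.33%. Psmb9 there was at 1.5 (1.42 to 1.58), just under the limit before rounding, and H2-D1 at 1.07 (1.06 to 1.08).

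T cell spots were compared next, because class I molecules are what CD8+ T cells read. Spots were thinned to 5900 UMIs, and those with at least 2 UMIs of the 12 T cell genes numbered 123 of 2002 in the control (6.14%) and 571 of 1869 in the rIL7 section (30.6%). They were set against the 1471 and 747 spots with none, and the 408 and 551 spots with 1 such UMI were left out. A limit of 2 UMIs is low, and counting error alone can place a spot above it. That error weighs more in the control, where T cell UMIs were scarcer, so the T cell spots of the sections are not matched. In the rIL7 section all 10 members were higher in T cell spots, with intervals above 1 and a median log2 ratio of 0.31 (0.25 to 0.38), beside 0.00 over all genes. In the control 9 of 10 were higher, 8 with intervals above 1, with a median of 0.15 (0.07 to 0.30), beside -0.01. With Trbc2 added to the T cell genes the control median was 0.064 and H2-D1 there was lower, at -0.011 on the log2 scale.

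Psmb9, Tap1 and Psmb10 led in the rIL7 section. Psmb9 stood at 225 CPM in T cell spots and 165 CPM in spots with none, a ratio of 1.36 (1.27 to 1.46). Psmb10 stood at 340.1 and 251 CPM (1.35, 1.28 to 1.43), and Tap1 at 346 and 257 CPM (1.35, 1.27 to 1.42). In the control the leaders were Tap1, at 252 and 195 CPM (1.29, 1.15 to 1.45), Tapbp, at 435 and 336 CPM (1.29, 1.19 to 1.41), and Psmb9, at 145 and 112 CPM (1.29, 1.11 to 1.5). The chains differed less, with H2-K1 at 1.18 (1.16 to 1.21) in the rIL7 section and 1.1 (1.05 to 1.14) in the control. Nlrc5 stood at 234 and 195 CPM in the rIL7 section (1.2, 1.13 to 1.28) and at 153 and 158 CPM in the control (0.972, 0.839 to 1.12).

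No member was 1.5-fold higher in T cell spots in either section, beside 3.31% of all genes in the rIL7 section and 1.15% in the control. At 1.2-fold there were 7 members in the rIL7 section beside 10.5% of genes, and 4 in the control beside 9.47%.

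**Figure D4:**
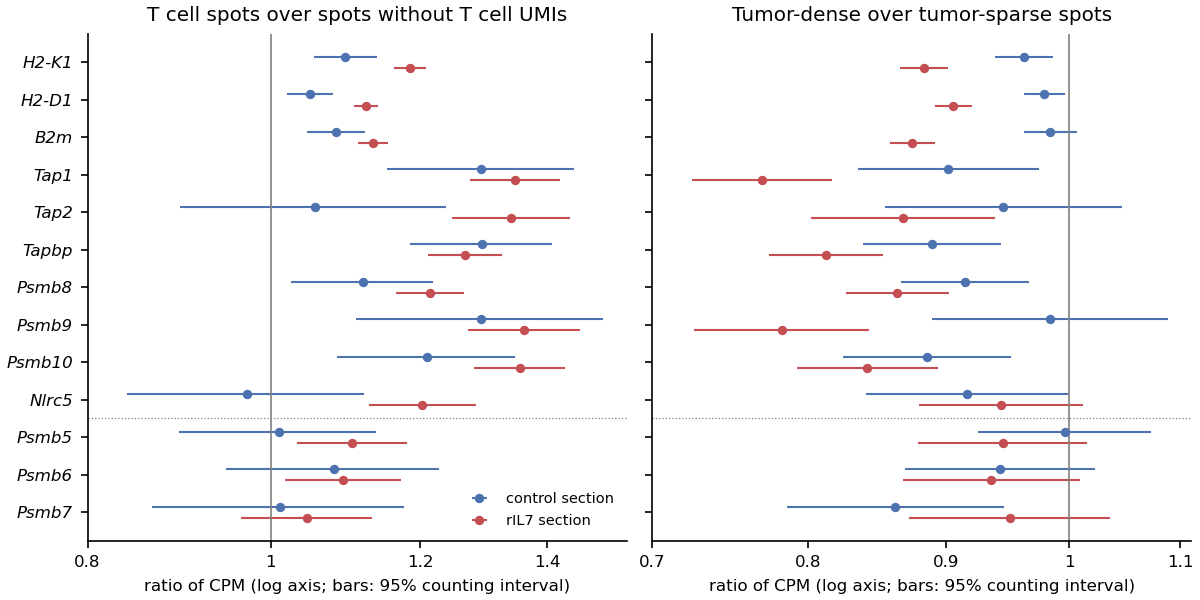
Ratio of CPM on log axes in T cell spots over spots without T cell UMIs (left) and in tumor-dense over tumor-sparse spots (right), for the members and, under the dotted line, the constitutive subunits. Colours are the sections and bars are 95% counting intervals; the rIL7 members lie right of 1 on the left, led by Psmb9 at 1.36, and left of 1 on the right, with Tap1 at 0.769.

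Part of the T cell spots lay at the edge, where the members were higher anyway. Within interior spots the median was 0.21 (0.12 to 0.30) in the rIL7 section, over 392 T cell spots and 693 with none, and 0.14 (0.07 to 0.27) in the control, over 91 and 1243. All 10 members were higher in the rIL7 interior, from 1.05 for B2m to 1.28 for Tap2, where 57.7% of all 7619 genes were higher too and the median over them was 0.03. At least 1.2-fold higher were 2 members there, beside 7.43% of genes, down from 7 over all spots. In the control interior there were 3, beside 11.2%. T cell spots also held more of other lists: in the rIL7 section 3104 against 2127 CPM of macrophage genes and 5474 against 2254 CPM of class II genes, and in its interior 2438 against 2091 CPM and 3146 against 2138 CPM.

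Levels also declined with distance from a T cell spot. In the rIL7 section the immunoproteasome sum was 1143 CPM in T cell spots, 967 CPM 1 step away, 848 CPM at 2 steps and 769 CPM at 3 steps, where 37 spots remained. In the control it was 846 CPM in T cell spots, 775 CPM at 1 step, 736 CPM at 2 steps, 731 CPM at 3 steps and 666 CPM at 4 or more. Peptide loading genes in the rIL7 section gave 1049, 856, 771 and 690.4 CPM over the same steps. The steps also run from edge to centre, so both distances are mixed. The limit on control T cell spots given above holds for these steps too.

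**Figure D5:**
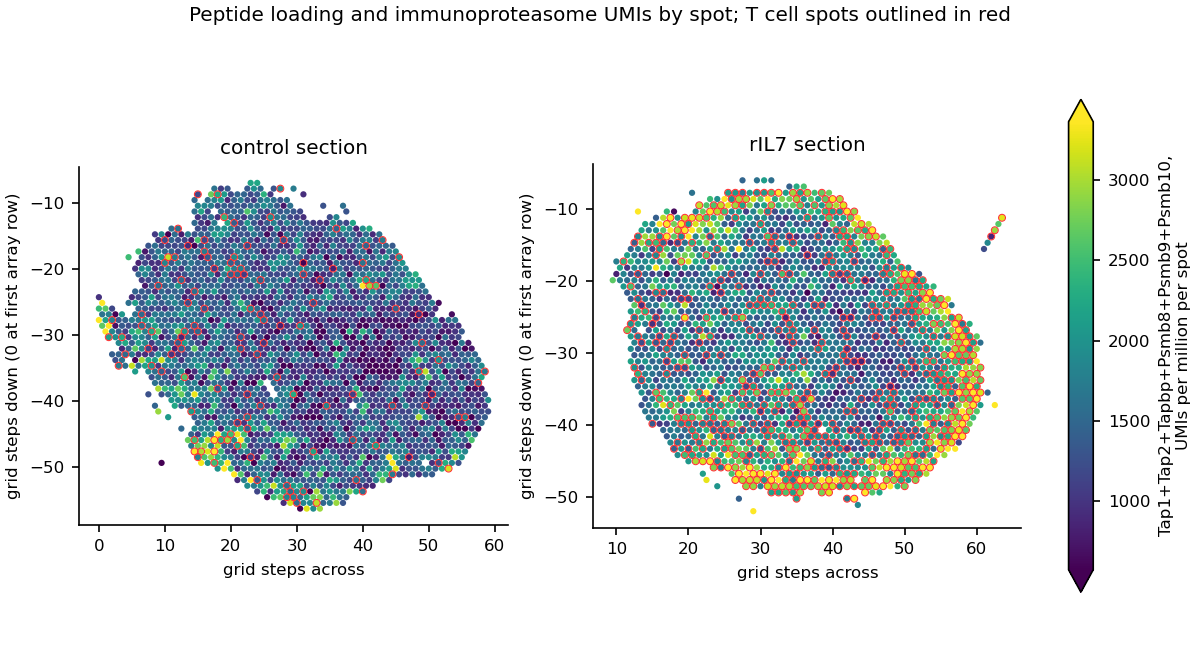
Map of both sections on the array grid, in grid steps; colour is the summed UMIs of Tap1, Tap2, Tapbp, Psmb8, Psmb9 and Psmb10 per 1000000 UMIs of the spot, on one scale, and red outlines mark T cell spots. The rIL7 section shows a bright rim with many outlined spots, 571 in all, and the control shows bright spots in patches and 123 outlined spots.

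Spots with an Ifng UMI, after thinning, were few, 23 in the control against 61 in the rIL7 section. The median log2 ratio of the members in these spots over all other thinned spots was 0.06 (-0.29 to 0.36) in the control against 0.06 (-0.03 to 0.19) in the rIL7 section. H2-K1 and H2-D1 had intervals above 1 in each section, with H2-K1 at 1.16 (1.07 to 1.26) and 1.07 (1.02 to 1.12). The intervals of the other 8 members included 1. The median over all genes was 0.02 in each section. No member reached 1.2-fold (0 per section), whereas 1823 of 7551 control genes and 1079 of 7643 rIL7 genes did. Among interior spots, with 18 control and 47 rIL7 spots holding an Ifng UMI, 1 control member and 2 rIL7 members had intervals above 1. Ifng UMIs were so rare that a spot without one can still hold its RNA.

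Tumor-dense spots held less of the members. Spots at or above their section's upper quartile of thinned Rpl39l and Baiap2l1 UMIs were compared with those at or below its lower quartile. These were 572 with 544 spots in the rIL7 section and 714 with 502 in the control. The upper and lower limits were 8 and 4 UMIs in the rIL7 section and 9 and 5 in the control. At such low counts, counting error alone can move a spot from class to class, so the classes separate tumor content only roughly. All 10 members were lower in tumor-dense spots of each section. The median log2 ratio was -0.21 (-0.30 to -0.16) in the rIL7 section, beside 0.02 over all genes, and -0.10 (-0.22 to -0.01) in the control, beside 0.00. With classes set by Rpl39l alone the rIL7 median was -0.11, and in the control H2-K1, H2-D1 and Nlrc5 were no longer lower, with log2 ratios of 0.00055, 0.0012 and 0.022. With another random seed for the thinning H2-D1 in the control stood at 0.0069.

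Tap1 had the lowest ratio in the rIL7 section, at 256 CPM in tumor-dense and 333 CPM in tumor-sparse spots (0.769, 0.724 to 0.816). Psmb9 stood at 164 and 209 CPM (0.782, 0.725 to 0.843), and Tapbp at 394 and 485 CPM (0.812, 0.774 to 0.853). In the control Psmb9 stood at 119 and 121 CPM (0.984, 0.889 to 1.09), and the lowest ratio was that of Psmb10 (0.886, 0.824 to 0.951). In the rIL7 section 0 members were 1.5-fold lower, beside 2.29% of genes, and 3 were 1.2-fold lower, beside 7.94%. In the control 0 were lower by either fold, beside 0.356% and 4.03%. Within interior spots the medians were -0.10 (-0.19 to -0.05) and -0.10 (-0.22 to -0.01), so the larger rIL7 value was not seen in its interior.

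Tumor-dense spots still differed between sections. In them all 10 members were higher in the rIL7 section, beside 50.6% of 7559 genes. The members' median was 0.33 (0.26 to 0.40), and Psmb9 led (1.38, 1.27 to 1.5). The narrowest class, tumor-dense interior spots with no T cell UMI, held 480 spots in the control against 262 in the rIL7 section. Its median was 0.30 (0.16 to 0.43), again with all 10 higher, from 1.05 for H2-D1 to 1.41 for Psmb9. Of 7586 genes, 46.9% were higher there. A spot with no T cell UMI at this depth can still hold T cells. The 747 rIL7 spots with none carried 72.1 CPM of the T cell genes when all their UMIs were counted, against 24.6 CPM in the 1471 control spots.

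After the data were seen, spots were also split into low, middle and high classes of thinned macrophage UMIs at limits shared by both sections: up to 11, up to 15, and more. In the low class the members had a median log2 ratio, rIL7 over control, of 0.35 (0.28 to 0.42), in the middle class 0.31 (0.21 to 0.40) and in the high class 0.45 (0.35 to 0.55). All 10 members were higher in each class, beside 45.8%, 46.9% and 52.8% of all genes in the low, middle and high class. The chains and the processing genes ran in different ways: the chains' summed ratio was 1.2 (1.18 to 1.21) in the low class and 1.09 (1.08 to 1.1) in the high class, and that of the immunoproteasome genes 1.28 (1.24 to 1.32) and 1.43 (1.38 to 1.48). Within a section, the high class exceeded the low class by 1.30-fold (1.29 to 1.32) for the chains and 1.14-fold (1.1 to 1.19) for the immunoproteasome genes in the control. The corresponding rIL7 values were 1.19 (1.18 to 1.2) and 1.28 (1.24 to 1.32).

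Across single thinned spots the chains were detected everywhere, and the rarer members were sparse. In the control Psmb9 had a UMI in 47.9% of spots (45.7% to 50.1%, exact binomial) and in the rIL7 section in 65.8% (63.6% to 67.9%). For Tap2 the shares were 50.1% and 62.1%, and for Nlrc5 59.8% and 70.7%. The chains' sum was patchy: its variance over mean was 2.57 in the control against 2.01 in the rIL7 section, against 1.07 and 1.01 for the constitutive sum, where 1 is counting noise. Moran's I, which is near 0 when neighbouring spots are unrelated, was 0.56 and 0.38 for the chains, 0.16 and 0.20 for the immunoproteasome sum, and 0.01 and 0.00 for the constitutive sum. So by these values the chains were more patchy in the control, and the loading genes in the rIL7 section (0.12 and 0.22). Both measures can also rise with the mean UMIs per thinned spot. These means were 45.9 and 54.0 for the chains, 3.85 and 5.39 for the loading genes, and 3.19 and 3.14 for the constitutive sum. How much of the differences in patchiness goes with these means was not tested.

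Spot by spot, the chains ran closest to class II and macrophage UMIs. Spearman's rho with the class II genes was 0.57 over 2002 control spots and 0.41 over 1869 rIL7 spots, and with the macrophage genes 0.49 and 0.43. With the T cell genes it was 0.07 in the control against 0.29 in the rIL7 section. Over interior spots alone the rIL7 values were smaller, at 0.16 with the T cell genes, 0.26 with the class II genes and 0.31 with the macrophage genes. The control values there were 0.07, 0.59 and 0.48. These are descriptions across spots of one library that share depth after thinning, and spots are not replicates.

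Likeness to the members was read over 24 units a section, each a distance class within a quadrant. The reference was the mean profile of the 10 members, and genes were ranked by the smaller of their Pearson r in the sections. Among 7331 other genes, the nearest included Cd52 (0.95 in the control, 0.96 in the rIL7 section), Rac2 (0.92, 0.91), Aif1 (0.90, 0.93), Tyrobp (0.88, 0.91), Cybb (0.87, 0.93), Coro1a (0.86, 0.93), Tmsb4x (0.86, 0.88), Ms4a4c (0.86, 0.86) and AW112010 (0.86, 0.92). The median gene had a smaller r of -0.26. Cd52, Rac2, Aif1, Tyrobp, Cybb and Coro1a are known as leukocyte genes. Among the members, Tap1 lay closest to the mean of the set (0.93 and 0.97) and Nlrc5 furthest from it (0.06 and 0.47), and each member is part of that mean. Of the constitutive subunits, Psmb5 had 0.21 and 0.24, Psmb7 0.15 and 0.24, and Psmb6 0.52 and 0.45, so that Psmb6 lay above the members H2-D1 (0.48) and Nlrc5 in the control and near Nlrc5 in the rIL7 section.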

How the data were processed

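Libraries were made from frozen tumor sections with the Visium Spatial 3′ v1 protocol. Per the labels and methods, the authors aligned and counted reads with Space Ranger 1.1.0 against mm10, and deposited whole UMI counts for each gene in each spot, without normalization, with the in-tissue flag and array row and column of each spot. The members and gene lists were chosen with earlier results of these data known. Samples were grouped by their titles.

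Spots over tissue with under 10% mitochondrial UMIs and over 200 genes were kept, which removed 2 control spots and 1 rIL7 spot. The sections shared 1701 spot barcodes, which are array positions of the slide and not cells. UMIs were summed over spots and divided by the spots' total (CPM). Ratios carry exact binomial (Clopper-Pearson) 95% intervals, and sums exact Poisson ones; UMIs per spot set their precision. The interval of a list's median is the median of its genes' bounds. The ratio and interval were tested on simulated Poisson counts only. These hold counting error alone, the error the interval assumes, so added spread between spots was not tried. For spot classes each spot was thinned to 5900 UMIs, which left out 217 control and 81 rIL7 spots. All members are named; other genes of a list are named at 1.5-fold or as a stated role, the latter chosen after their values were seen, and genes among the 10 most like the members by r, of those of at least 20 CPM. List counts use genes with at least 20 UMIs. The lists covered the T cell, CT26 tumor, macrophage, dendritic cell, MHC class II, endothelial, fibroblast, NK cell, B cell, neutrophil, keratinocyte, skeletal muscle and adipocyte genes and the pathway lists. In the control and rIL7 sections dendritic cell genes summed to 84.5 and 90.1 CPM, endothelial to 46.5 and 44.5, NK cell to 34.4 and 80.0, B cell to 3.09 and 3.19, neutrophil to 139.9 and 251, and adipocyte to 106 and 134. Alternatives were other filters, totals, spot weights, spot classes, and TMM (edgeR 4.0.16) and median-of-ratios (DESeq2 1.42.0) scaling. Python 3.11.15, numpy 2.4.6, scipy 1.17.1 and R 4.3.3 were used. Image scale factors were not used. The result of 1 other gene is not reported here.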

Additional observations from a re-analysis of the deposited data

Results flagged for a closer look

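Nlrc5 ran in opposite directions in the sections in 2 comparisons, and the difference between sections was not tested. Its edge over interior ratio was 1.02 (0.943 to 1.09) in the rIL7 section and 0.948 (0.871 to 1.03) in the control, both within counting error of 1. In T cell spots over spots without T cell UMIs its ratio was 1.2 (1.13 to 1.28) in the rIL7 section and 0.972 (0.839 to 1.12) in the control.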

How the results depend on the processing

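Over the 7 comparisons, 72 alternative medians of the members were computed. Of these, 59 stayed inside the median bounds given with the reported median, 13 lay outside them and 0 changed sign. For rIL7 over control (0.37) the median was 0.53 in edge spots alone and 0.27 in spots with 0 T cell UMIs, and, with classes added after the data were seen, 0.31 in the middle and 0.45 in the high class of macrophage UMIs. For edge over interior in the control (0.16) it was 0.25 with each spot weighted equally. For T cell spots in the rIL7 section (0.31) it was 0.22 from 1 UMI, 0.41 from 3 UMIs, 0.24 with Trbc2 and 0.21 in interior spots, and in the control (0.15) it was 0.064 with Trbc2. For tumor-dense spots in the rIL7 section (-0.21) it was -0.10 in interior spots, -0.12 in spots with 0 T cell UMIs and -0.11 by Rpl39l alone. Of 720 alternative values of single members, 5 changed sign where the reported interval left out a ratio of 1, all in the control. The log2 ratio of H2-D1 in T cell spots was -0.011 with Trbc2. In tumor-dense spots H2-K1 was 0.00055, H2-D1 0.0012 and Nlrc5 0.022 by Rpl39l alone, and H2-D1 0.0069 with another random seed. Sign changes of members whose reported interval included 1 were not counted. Nlrc5 in control T cell spots, reported at 0.972, gave such a change. At or below the median tumor density it stood at 174 CPM in T cell spots and 155 CPM in spots with none. The cause of these changes was not tested. TMM and median-of-ratios scaling each shifted the rIL7 over control values by 0.01. The minimum of 100 UMIs left out 0 members, so it gave the reported values. No paired analysis was possible because each group is 1 section. Depth limits the values of the 23 control spots with an Ifng UMI and of the 123 control T cell spots, and differences between mice cannot be read at all.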
